A study of Mus musculus with 12 samples.

Results

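A set of 10 lineage markers of antigen-presenting cells were followed across treatments of a cell line that is labelled as dendritic. Of these, 5 mark dendritic cells (Itgax, Zbtb46, Flt3, Batf3 and Ly75) and 5 mark macrophages (Csf1r, Adgre1, Mertk, Lyz2 and Cd68). They were chosen by name, as the rows of the gene count table whose Ensembl identifier maps to these symbols, and make up 10 of the 42687 identifiers in the table. Of the 13261 genes with enough counts to be tested, 9 were markers of this set, and the marker below the limit, Flt3, is given as raw counts.

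The counts came from stranded mRNA sequencing of DC2.4 cells, a single immortalised mouse dendritic cell line, all labelled WT, in 12 libraries of 3 per group. The study gave these cells extracellular vesicles, small membrane particles shed by T cells. Vesicles of activated T cells (ATEV) were given at 15 µg/mL. Those of non-activated T cells (NTEV) were given at 30 µg/mL. In the DNase-treated ATEV group the vesicles, at 15 µg/mL, had first been incubated with Baseline-ZERO DNase, an enzyme that degrades DNA, and the control group received phosphate-buffered saline (PBS). The NTEV and ATEV doses differed in vesicle amount, and a note in the labels on 5 µg/mL of vesicle DNA may apply to both. The protocol was run 3 times, and the labels leave unclear whether these were successive rounds on 1 culture or independent experiments. Separate cultures behind the 3 libraries of a group are not stated. The p-values set a group difference against the spread among these 12 libraries only, and that spread may be technical. In bulk libraries like these, fewer cells of a type and less RNA per cell cannot be told apart.

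Libraries held 19.39 to 30.38 M counts (1 M = 1000000). Along the first principal component of the log2 CPM values, replicate 1 of NTEV (18.4) and of DNase-treated ATEV (24.3) fell in the range of the PBS libraries (11.2 to 32.9), and the other 7 vesicle libraries lay from -35 to -4.38. On the second component, ATEV replicates 2 (-21.4) and 3 (-38) stood apart from the other 10 libraries (-0.802 to 15.9). Markers of other cell types were mostly near 0, with exceptions. Of 13 T cell genes, Cd3e and Trbc2 had 0 counts in every library and Cd3d reached 7 counts over all 12. Cd28 had 634 to 2196 counts per library, Lck 151 to 430 and Cd5 16 to 73. Raw counts summed over ATEV, NTEV, DNase-treated ATEV and PBS were 758, 666, 746 and 536 for Lck. For Cd5 they were 129, 150, 147 and 85, and for Cd28 2584, 2513, 2910 and 4981. The summed level of the 13 was led by Cd28 and ran from 44.7 to 63.8 CPM with ATEV, 36.2 to 53.9 with NTEV, 55.9 to 62.3 with DNase-treated ATEV and 60.1 to 102.6 with PBS. The 6 B cell genes summed to at most 0.474 CPM and the 5 NK cell genes to at most 0.12 CPM in any library, and the 6 fibroblast genes to 0.525 to 4.82 CPM.

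Dendritic cells and macrophages are related phagocytes that grow from shared bone marrow precursors under different cytokines. FLT3, the receptor of FLT3 ligand, drives the growth of dendritic cell precursors, whereas CSF1R, the receptor of CSF1 and IL-34, maintains macrophages. Zbtb46 and Batf3 encode transcription factors of conventional dendritic cells, Itgax encodes the integrin chain CD11c, and Ly75 encodes the endocytic receptor DEC-205. Adgre1 encodes the adhesion receptor F4/80, Mertk a receptor kinase that binds dying cells, Lyz2 the secreted enzyme lysozyme M, and Cd68 a heavily glycosylated lysosomal membrane protein. Some of these markers cross lineages: Itgax, Csf1r and Lyz2 can be found in both cell types.

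The sequences just upstream of the gene starts are shown for the markers whose levels passed the test in a comparison, taken from RefSeq on build GRCm38.p6, 250 bases ending just before the gene start and written 5′ to 3′ on the gene's strand. RefSeq promoters were matched for 8 of the 10 markers. Itgax lies on the plus strand at chr7:128129300-128129549 and Ly75 on the minus strand at chr2:60383274-60383523. In Itgax the capitals mark a match to the AP-1 motif TGANTCA, which starts 56 bases before the gene start. Ly75 had no match to any motif searched.
Itgax: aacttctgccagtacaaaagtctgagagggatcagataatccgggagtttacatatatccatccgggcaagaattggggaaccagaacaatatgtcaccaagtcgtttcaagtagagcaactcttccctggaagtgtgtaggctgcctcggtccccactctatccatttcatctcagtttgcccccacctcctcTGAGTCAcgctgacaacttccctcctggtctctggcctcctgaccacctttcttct
Ly75: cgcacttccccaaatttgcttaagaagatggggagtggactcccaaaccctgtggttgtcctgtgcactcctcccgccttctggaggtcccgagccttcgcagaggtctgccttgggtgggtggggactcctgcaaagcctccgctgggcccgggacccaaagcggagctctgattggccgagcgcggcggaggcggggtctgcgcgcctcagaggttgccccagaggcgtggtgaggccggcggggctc

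Lyz2 is printed beside its neighbour and close relative Lyz1, because reads of these genes can be hard to assign. Lyz2 lies on the minus strand at chr10:117282273-117282522 and Lyz1 on the minus strand at chr10:117292869-117293118. Capitals mark the bases that differ between them or have no partner in the alignment.
Lyz2: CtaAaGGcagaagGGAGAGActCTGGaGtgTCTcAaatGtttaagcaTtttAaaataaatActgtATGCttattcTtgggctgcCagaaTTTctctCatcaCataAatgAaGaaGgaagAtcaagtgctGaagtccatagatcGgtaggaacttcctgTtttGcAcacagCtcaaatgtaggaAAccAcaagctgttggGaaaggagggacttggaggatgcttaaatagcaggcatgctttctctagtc
Lyz1: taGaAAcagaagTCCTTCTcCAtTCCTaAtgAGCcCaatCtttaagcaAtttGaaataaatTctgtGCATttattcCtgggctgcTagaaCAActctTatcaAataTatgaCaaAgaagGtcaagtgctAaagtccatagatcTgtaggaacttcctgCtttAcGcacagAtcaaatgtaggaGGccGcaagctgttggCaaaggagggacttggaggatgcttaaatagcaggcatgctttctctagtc

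Over the 252 columns of that alignment 200 bases were identical (79.4%), and of the 100 bases nearest to the gene start 92 were identical. The motifs were searched on both strands of the 300-base windows that run from 250 bases before to 50 bases after the start. AP-1 (TGANTCA) was present in 7.81% of all 32851 promoters of that length, the PU.1 core (GAGGAAG) in 13.6%, the GAS element (TTCNNNGAA) in 8.3% and the core of the interferon-stimulated response element (ISRE) in 3.44%. Besides Itgax, AP-1 matches lay in Zbtb46 at 61 bases and in Cd68 at 149 and 24 bases before the start. Batf3 held a PU.1 core at 153 bases and a GAS element at 239 bases before the start. The windows of Flt3, Ly75, Mertk, Lyz2 and Lyz1 held none of these letters.

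On a scale that divides CPM (counts per 1000000 normalised counts) by exon length in kilobases, 4 of the 5 macrophage markers stood far above the dendritic cell markers in every library. Lyz2 averaged 1850.1 CPM per kilobase over the 12 libraries and ranked between 6 and 19 among 13220 genes. Cd68 averaged 824.5 and ranked between 16 and 56. Csf1r averaged 88.6 CPM per kilobase and Adgre1 82.0, both within the top 1020 genes of each library.

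The dendritic cell markers occupied the lower ranks. Itgax was the highest of them, with 6.78 CPM per kilobase and a rank between 5074 and 8804. Batf3 averaged 3.28 CPM per kilobase, Zbtb46 0.736 and Ly75 0.169. Mertk, at 2.12, was the macrophage marker that stood among them. Ly75 ranked between 11813 and 13179, close to the end of the list.

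The 5 dendritic cell markers together made up 0.23 to 0.621% of the length-scaled level summed over all 10. The order of the means was Lyz2, Cd68, Csf1r, Adgre1, Itgax, Batf3, Mertk, Zbtb46, Ly75 and Flt3. The ranges over the 12 libraries overlapped between Lyz2 (910.6 to 4113.2) and Cd68 (680.9 to 1028.1), and between Csf1r (71.1 to 108.4) and Adgre1 (55.0 to 130.5), so these neighbours were not separated by their spread. Itgax (2.65 to 10.0) overlapped Batf3 (1.63 to 4.25), and Batf3 overlapped Mertk (1.07 to 3.42).

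**Figure D1:**
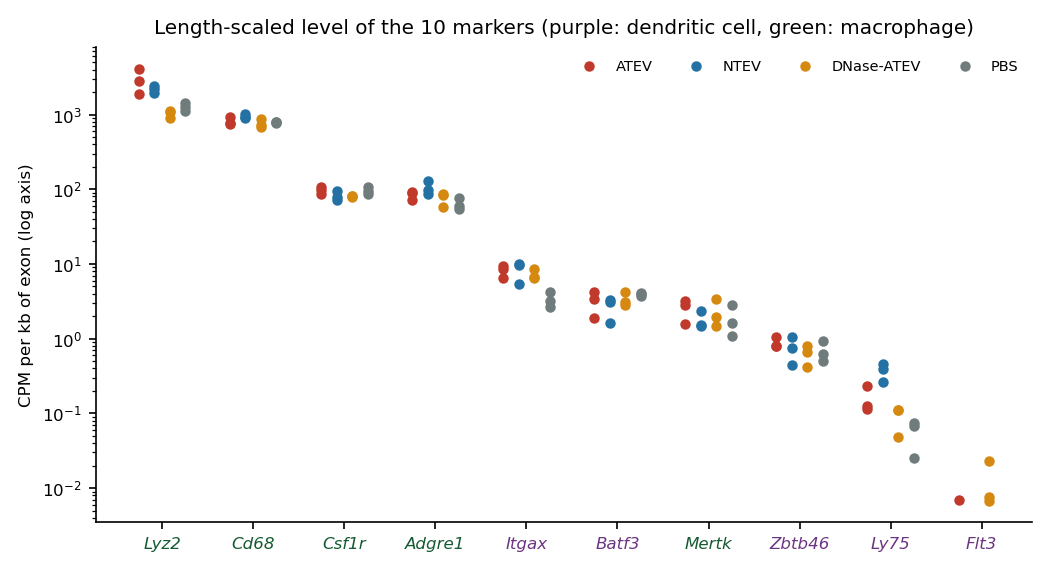
Length-scaled level (CPM per kilobase of exon, log axis) of each marker in each of the 12 libraries, with groups told apart by colour; libraries without Flt3 counts have no point on the log axis. Lyz2 and Cd68 lie above all other markers, and the dendritic cell markers Zbtb46 and Ly75 lie near the lower end.

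The label of the line was checked against these markers. Flt3 had 1, 0 and 0 counts in the ATEV libraries, 0, 0 and 0 in the NTEV libraries, 3, 1 and 1 in the DNase-treated ATEV libraries and 0, 0 and 0 in the PBS libraries. Each group held 62.52 to 74.82 M counts, and a count of 0 over a group allows up to 0.0401 CPM for NTEV and 0.0421 CPM for PBS, for counting error only. Flt3 was therefore near or below what this depth can show in every group.

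The further dendritic cell genes were mixed. Of 38 markers of conventional dendritic cells, 19 had enough counts to be tested and 5 (Bcl11a, Dpp4, P2ry10, Clec9a and Cd8a) had 0 counts in all libraries. Xcr1, a chemokine receptor of cross-presenting dendritic cells, reached at most 7 counts in a library. Others were abundant: Sirpa, a signal-regulatory receptor that macrophages also carry, averaged 121.4 CPM per kilobase, the transcription factors Nfil3 and Id2 averaged 26.0 and 20.1, and Naaa, Wdfy4 and Notch2 averaged 15.7, 13.8 and 13.3, all above the 6.78 of Itgax. Of 10 markers of plasmacytoid dendritic cells 4 could be tested. Of 41 further macrophage and monocyte markers 33 could be tested, Timd4 and Chil3 had 0 counts in all libraries, and Cd163 and Vsig4 had 2 and 3 counts in total. Of the 5 dendritic cell markers followed here, Flt3 was near 0, Ly75 and Zbtb46 were low, and Itgax was the highest. The receptor Csf1r was present at 410.7 to 626.1 CPM throughout.

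ATEV were compared with PBS to ask how vesicles of activated T cells changed these cells. Of the 9 markers tested, 2 rose, Itgax and Lyz2, and 0 fell. Over all 13261 genes, 4.74% were called in either direction (3.32% higher and 1.42% lower). The fitted log2 fold change was above 0 for 8 of the 9 markers, among them Csf1r, which rounded to 0.0. The share of all genes above 0 was not computed, so this count is description only. The median of the 9 was 0.39, against 0.03 for all genes. Unless DESeq2 is named, adjusted p-values come from edgeR's quasi-likelihood test, adjusted by Benjamini-Hochberg over the 13261 genes. The limit for a call was 0.05.

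Itgax had 41.5, 45.8 and 30.9 CPM with ATEV, against 12.7, 20.3 and 15.3 CPM with PBS. Every ATEV library lay above every PBS library. The share of all genes without overlap was not computed for any comparison, so such gaps, here and below, are description only. The means were 39.4 ± 7.65 CPM with ATEV and 16.1 ± 3.85 CPM with PBS (SD, n = 3 each), a log2 fold change of 1.29 ± 0.25 (SE, 95% interval 0.76 to 1.83, adjusted p = 0.0116). The call was lost without ATEV replicate 2 (adjusted p = 0.0616) and without PBS replicate 1 (adjusted p = 0.0601).

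Lyz2 had 2468.2, 3716.5 and 5413.0 CPM with ATEV, against 1648.9, 1452.2 and 1885.0 CPM with PBS. The groups did not overlap, and the ATEV libraries were the most spread of the 4 groups. Lyz2 averaged 3865.9 ± 1478.1 CPM with ATEV and 1662.0 ± 216.7 CPM with PBS, a log2 fold change of 1.22 ± 0.23 (SE, 95% interval 0.72 to 1.72, adjusted p = 0.0113). Without PBS replicate 2 Lyz2 no longer passed (adjusted p = 0.075). Without ATEV replicate 3, the highest library, the log2 fold change was 0.91 (adjusted p = 0.0319). Without ATEV replicate 2 it was 1.25 (adjusted p = 0.0409).

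These libraries, ATEV replicates 2 and 3, are the ones that stood apart along the second principal component. Some other macrophage genes were also highest in them, and others were not. C1qb, a chain of the complement protein C1q, had 83.6, 265.5 and 394.7 CPM with ATEV, against 45.4, 17.6 and 85.0 CPM with PBS. Aif1, an actin-binding protein of macrophages, had 6.2, 16.5 and 30.9 CPM with ATEV, against 3.0, 1.27 and 4.01 CPM with PBS. Lyz2, C1qb and Aif1 thus had the same order over the 3 ATEV libraries. Csf1r (609.8, 559.4 and 503.9 CPM) and Adgre1 (293.2, 288.0 and 230.0 CPM) had the reverse order. Among the ATEV libraries F13a1 was highest in replicate 1 (41.0 CPM), and Cd68 and Siglec1 in replicate 2 (1178.2 and 144.1 CPM). The part of these differences between the ATEV libraries in the Lyz2 result was not tested.

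Among the neutrophil genes, S100a8 (a calcium-binding protein of neutrophils and monocytes) had the order of Lyz2 over the ATEV libraries. In the other groups the order of the libraries differed between S100a8 and Lyz2. S100a8 had 4.48, 17.1 and 29.6 CPM with ATEV, against 5.55, 5.96 and 3.84 CPM with PBS. Its log2 fold change did not pass the test (1.73, adjusted p = 0.0842). The 8 neutrophil genes summed to 4.78 to 29.7 CPM with ATEV, 3.2 to 11.0 with NTEV, 4.63 to 7.7 with DNase-treated ATEV and 4.14 to 6.1 with PBS. Ly6g, a surface marker of neutrophils, had 0 counts in all 12 libraries, as did S100a9, the partner of S100a8. The part of these genes in the Lyz2 result was not tested.

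Ly75 had 1.59, 0.86 and 0.795 CPM with ATEV, from 37, 18 and 15 counts, against 0.519, 0.469 and 0.172 CPM with PBS, from 13, 10 and 4 counts. The groups did not overlap, but the log2 fold change of 1.48 ± 0.47 did not pass the edgeR test (adjusted p = 0.084); DESeq2 called it (adjusted p = 0.0386). The remaining macrophage markers did not pass. Cd68 had 934.4, 1178.2 and 955.6 CPM with ATEV, against 991.0, 970.7 and 993.1 CPM with PBS, and its log2 fold change had a 95% interval of -0.24 to 0.35.

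Csf1r had 609.8, 559.4 and 503.9 CPM with ATEV, against 626.1, 491.7 and 550.2 CPM with PBS, with an interval of -0.3 to 0.31. Adgre1 had 293.2, 288.0 and 230.0 CPM with ATEV, against 178.1, 193.6 and 248.1 CPM with PBS (log2 fold change 0.39 ± 0.2, adjusted p = 0.226). For both receptors the groups overlapped. Zbtb46 (9.0, 6.88 and 6.79 CPM with ATEV, against 4.23, 5.26 and 7.8 CPM with PBS) and Mertk (6.8, 12.4 and 14.0 CPM with ATEV, against 7.11, 4.65 and 12.3 CPM with PBS) overlapped as well. Batf3 was the marker with a fold change below 0 (-0.31 ± 0.31, adjusted p = 0.533), at 3.01, 5.35 and 6.79 CPM with ATEV, against 6.43, 6.38 and 5.9 CPM with PBS.

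**Figure D2:**
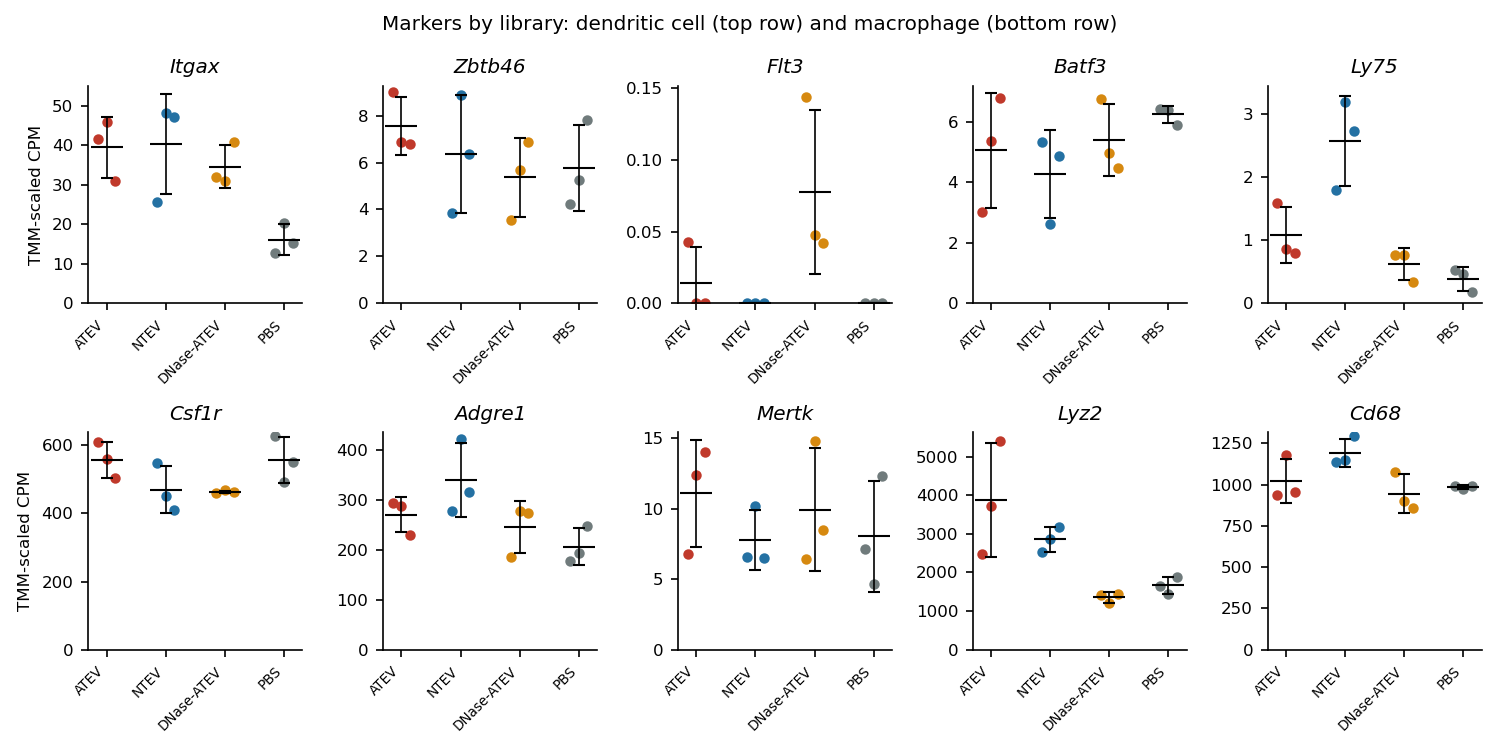
Normalised count (CPM) of each marker in each library, 1 panel per marker, with groups from left to right ATEV, NTEV, DNase-treated ATEV and PBS and lines for the group mean and SD (n = 3). Itgax is lowest in the 3 PBS libraries, and Lyz2 is highest in ATEV replicate 3.

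Vesicles of non-activated T cells, at 30 µg/mL, were compared with the same PBS libraries. Of the 9 markers tested 2 rose, Itgax and Ly75, and 0 fell, with 2.31% of all genes called in either direction (1.7% higher and 0.611% lower). The median log2 fold change of the 9 was 0.28, against -0.003 for all genes. Of the 9, 6 were above 0, again without the share of all genes to compare. Because the ATEV, NTEV and DNase-treated ATEV comparisons use the same PBS libraries, their values are not independent.

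Itgax had 25.6, 48.1 and 47.0 CPM with NTEV, against 12.7, 20.3 and 15.3 CPM with PBS. All NTEV libraries lay above all PBS libraries, with NTEV replicate 1 the lowest of the 3. The means were 40.2 ± 12.7 CPM with NTEV and 16.1 ± 3.85 CPM with PBS (SD, n = 3 each), and the log2 fold change was 1.32 ± 0.25 (SE, 95% interval 0.78 to 1.86, adjusted p = 0.0185). The adjusted p was 0.062 without NTEV replicate 2, 0.0918 without NTEV replicate 3, 0.0728 without PBS replicate 1, 0.0916 without PBS replicate 3 and 0.0855 in a fit of these 2 groups alone, and in each case the call was lost. Without NTEV replicate 1 the log2 fold change was 1.58 (adjusted p = 0.00171).

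Ly75 rose the most of the 9 markers. It had 1.79, 3.2 and 2.73 CPM with NTEV, from 52, 80 and 55 counts, against 0.519, 0.469 and 0.172 CPM with PBS. The groups did not overlap. Ly75 averaged 2.58 ± 0.717 CPM with NTEV and 0.387 ± 0.188 CPM with PBS, a log2 fold change of 2.71 ± 0.45 (SE, 95% interval 1.74 to 3.68, adjusted p = 0.0116). The call was lost without NTEV replicate 3 (adjusted p = 0.0554), without PBS replicate 2 (0.0563), without PBS replicate 3 (0.0625) and in the fit of these 2 groups alone (0.057). Without NTEV replicate 1 it was 2.93 (adjusted p = 0.00379).

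The exons of Ly75 share 249 bases with Gm13571, a gene annotated on the opposite strand, and the strand setting used for counting was not given in the sources used here. Gm13571, named after its values were seen, had 2.8, 5.49 and 4.47 CPM with NTEV, against 0.919, 0.516 and 0.388 CPM with PBS, a log2 fold change of 2.78 ± 0.36 (adjusted p = 0.00296). It had 308 counts over the NTEV libraries, and Ly75 had 187. With ATEV it had 2.28, 2.01 and 2.44 CPM (log2 fold change 1.86 ± 0.37 against PBS, adjusted p = 0.014). Which of these genes the reads over the shared bases came from cannot be told apart.

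**Figure D3:**
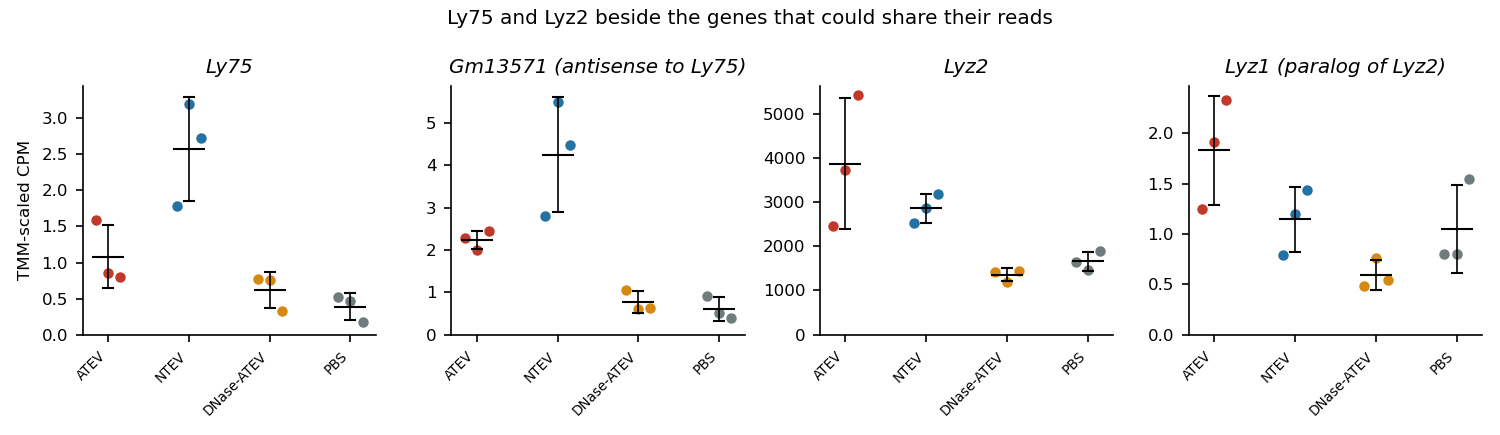
Normalised counts (CPM) per library of Ly75 and of Gm13571, the antisense gene that shares exon bases with it, and of Lyz2 and its relative Lyz1, with groups from left to right ATEV, NTEV, DNase-treated ATEV and PBS and lines for the group mean and SD (n = 3). Ly75 and Gm13571 are both highest with NTEV, and Lyz1 stays below 2.5 CPM.

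Lyz2, Adgre1, Cd68 and Batf3 also had no overlap between NTEV and PBS libraries, without passing the edgeR test. How many of all genes had no overlap was not computed, so no conclusion is drawn from these gaps. Lyz2 had 2528.7, 2861.3 and 3170.0 CPM with NTEV, a log2 fold change against PBS of 0.78 ± 0.23 (adjusted p = 0.0985). Adgre1 had 278.9, 422.6 and 316.9 CPM with NTEV, a log2 fold change of 0.72 ± 0.2 (adjusted p = 0.0839). DESeq2 called both (Lyz2 adjusted p = 0.0227, Adgre1 adjusted p = 0.0141). Without NTEV replicate 1, edgeR called both as well (Lyz2 adjusted p = 0.0414, Adgre1 adjusted p = 0.0232). Without NTEV replicate 2 or 3 it called neither (Lyz2 adjusted p = 0.233 and 0.315, Adgre1 adjusted p = 0.308 and 0.202). Of the 12 fits that left out 1 library, 3 called Lyz2 and 1 called Adgre1.

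Cd68 had 1138.6, 1148.1 and 1292.3 CPM with NTEV, a log2 fold change against PBS of 0.28 ± 0.14 (adjusted p = 0.291). Batf3 had 5.31, 2.6 and 4.87 CPM with NTEV, below the 5.9 CPM of the lowest PBS library, a log2 fold change of -0.55 ± 0.31 (adjusted p = 0.352). The other 3 markers overlapped. Csf1r had 547.2, 451.8 and 410.7 CPM with NTEV (-0.24 ± 0.14, adjusted p = 0.363). Zbtb46 had 3.83, 8.89 and 6.36 CPM (0.14 ± 0.33, adjusted p = 0.84), and Mertk had 6.59, 10.2 and 6.51 CPM (-0.05 ± 0.39, adjusted p = 0.957).

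DNase-treated ATEV were compared with PBS and with untreated ATEV to ask what changes when the vesicles are first incubated with the enzyme. The DNA left in the vesicles is not measured in these libraries. Against PBS, edgeR called 0 of the 9 markers, as it called 0% of all genes. At an unadjusted p under 0.05 it found 791 genes, among them 1 marker, Itgax. DESeq2 called 35 genes and 1 marker, again Itgax (adjusted p = 0.0126), and limma-voom called 0 genes.

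Itgax had 31.8, 31.0 and 40.9 CPM with DNase-treated ATEV, against 12.7, 20.3 and 15.3 CPM with PBS. The groups did not overlap. The means were 34.5 ± 5.48 CPM with DNase-treated ATEV and 16.1 ± 3.85 CPM with PBS, a log2 fold change of 1.1 ± 0.25 (95% interval 0.57 to 1.64, adjusted p = 0.399). Without DNase-treated ATEV replicate 1 it was 1.16 (adjusted p = 0.247).

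Lyz2 had 1426.5, 1198.3 and 1448.9 CPM with DNase-treated ATEV, each below the lowest PBS library at 1452.2 CPM, with a log2 fold change of -0.29 ± 0.23 (adjusted p = 0.833). Csf1r had 460.0, 467.5 and 461.8 CPM with DNase-treated ATEV, also below every PBS library (-0.26 ± 0.14, adjusted p = 0.826). Ly75 had 0.77, 0.758 and 0.334 CPM, from 16, 16 and 8 counts, and overlapped PBS. Adgre1 had 185.7, 277.9 and 273.8 CPM, Cd68 had 1078.3, 900.4 and 855.9 CPM, and both overlapped PBS.

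Zbtb46 had 3.56, 5.68 and 6.89 CPM with DNase-treated ATEV, and Batf3 had 6.74, 4.97 and 4.47 CPM. Mertk had 6.45, 14.8 and 8.51 CPM. These low markers overlapped PBS in each case.

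Against untreated ATEV, 1 of the 9 markers fell with DNase-treated ATEV, Lyz2, and 0 rose, with 1.46% of all genes called in either direction (1.32% lower and 0.143% higher). Lyz2 had 1426.5, 1198.3 and 1448.9 CPM with DNase-treated ATEV, against 2468.2, 3716.5 and 5413.0 CPM with ATEV. All DNase-treated libraries lay below all ATEV libraries. The means were 1357.9 ± 138.6 CPM with DNase-treated ATEV and 3865.9 ± 1478.1 CPM with ATEV, a log2 fold change of -1.51 ± 0.23 (95% interval -2.02 to -1.0, adjusted p = 0.00489). Leaving out any 1 of the 12 libraries kept the call, with adjusted p-values of at most 0.0428. Without DNase-treated ATEV replicate 1 the log2 fold change was -1.55 (adjusted p = 0.0161), and without ATEV replicate 3 it was -1.19 (adjusted p = 0.0135). Without ATEV replicate 2 it was -1.54 (adjusted p = 0.0207). S100a8 had 7.61, 5.78 and 4.42 CPM with DNase-treated ATEV, against 4.48, 17.1 and 29.6 CPM with ATEV (-1.52, adjusted p = 0.217).

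Lyz1 is the neighbour that could take reads from Lyz2. Over 447 coding bases, 425 (95.1%) were identical between them, and the longest identical run was 118 bases. Lyz1 had 0.481, 0.758 and 0.543 CPM with DNase-treated ATEV, against 1.25, 1.91 and 2.33 CPM with ATEV, a log2 fold change of -1.61 ± 0.38 (adjusted p = 0.0622). Summed over the ATEV libraries, Lyz1 had 113 counts and Lyz2 had 237245.

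The dendritic cell marker Itgax did not pass in that comparison. It had 31.8, 31.0 and 40.9 CPM with DNase-treated ATEV, against 41.5, 45.8 and 30.9 CPM with ATEV, and the groups overlapped. The log2 fold change was -0.19 ± 0.24, with a 95% interval of -0.71 to 0.33, so a fall larger than 0.71 on the log2 scale lay outside it. For Lyz2 the interval lay below -1.0. Whether the change with DNase treatment of the vesicles differed between these genes was not tested.

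Ly75 and Csf1r had no overlap between DNase-treated ATEV and ATEV libraries, without passing the test. The share of all genes without overlap was not computed here either. Their log2 fold changes were -0.82 ± 0.45 for Ly75 (adjusted p = 0.396) and -0.27 ± 0.14 for Csf1r (adjusted p = 0.38). For the other 5 markers they ran from -0.49 ± 0.33 (Zbtb46) to 0.1 ± 0.31 (Batf3).

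ATEV were compared with NTEV to ask whether the activation of the donor T cells mattered, with the doses differing as given above. Here edgeR called 0 of the 9 markers, against 0.935% of all genes (0.875% higher and 0.0603% lower). At an unadjusted p under 0.05 it found 1 marker, Ly75. DESeq2 and limma-voom called 0 markers.

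Ly75 had 1.59, 0.86 and 0.795 CPM with ATEV, against 1.79, 3.2 and 2.73 CPM with NTEV, without overlap. The log2 fold change was -1.23 ± 0.4 (95% interval -2.1 to -0.36, adjusted p = 0.219). Itgax had a log2 fold change of -0.03 ± 0.24 with a 95% interval of -0.55 to 0.49, and its groups overlapped. Lyz2 had 2468.2, 3716.5 and 5413.0 CPM with ATEV, against 2528.7, 2861.3 and 3170.0 CPM with NTEV, which overlapped (0.44 ± 0.23, adjusted p = 0.422). The other 6 markers ran from -0.33 ± 0.2 (Adgre1) to 0.51 ± 0.39 (Mertk).

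**Figure D4:**
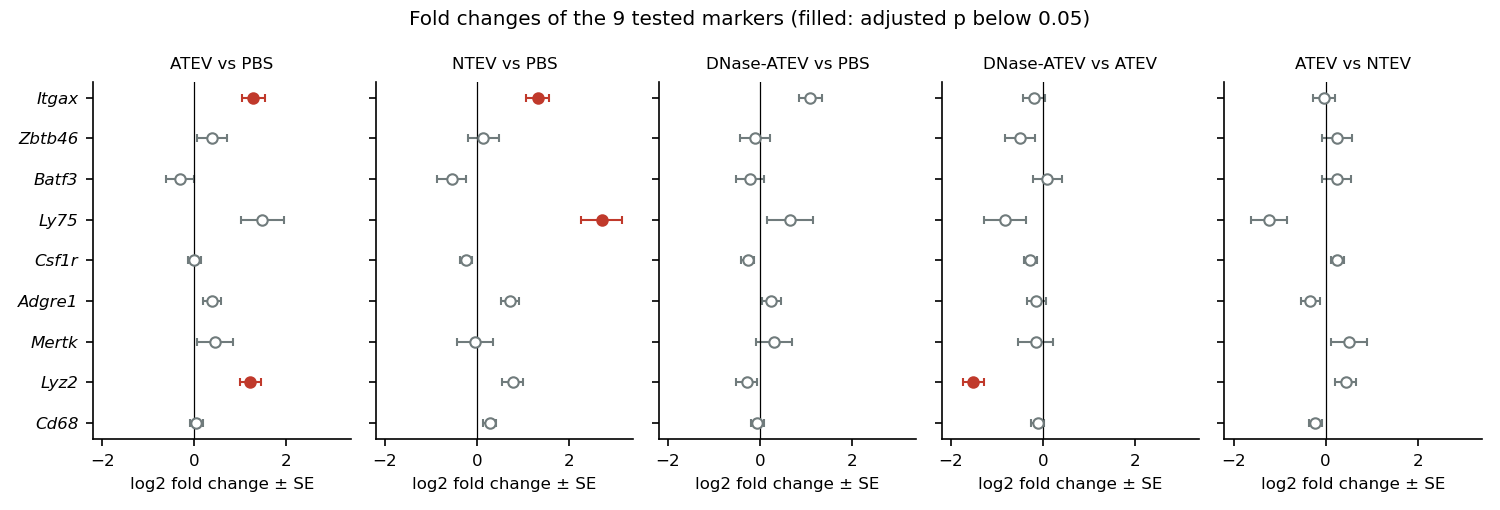
Log2 fold change of the 9 tested markers in the 5 comparisons, with bars of 1 SE from the edgeR fit and filled points for an adjusted p under 0.05. The 5 filled points are Itgax and Lyz2 for ATEV against PBS, Itgax and Ly75 for NTEV against PBS, and Lyz2 for DNase-treated ATEV against ATEV.

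Ratios and shares of the markers are given here and below as description, and none was tested between groups. The ratio of Lyz2 to Cd68 counts, both abundant macrophage transcripts, was 2.64, 3.15 and 5.66 with ATEV, 2.22, 2.49 and 2.45 with NTEV, 1.32, 1.33 and 1.69 with DNase-treated ATEV and 1.66, 1.5 and 1.9 with PBS. All 6 ATEV and NTEV libraries lay above all 6 others. The ratio of Adgre1 to Csf1r counts was 0.481, 0.515 and 0.456 with ATEV, 0.51, 0.935 and 0.772 with NTEV, 0.404, 0.594 and 0.593 with DNase-treated ATEV and 0.284, 0.394 and 0.451 with PBS.

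Within the dendritic cell set, Itgax made up 55.5 to 76.2% of the length-scaled sum in the 9 vesicle libraries, and 36.5 to 47.4% in the PBS libraries. The order of the group means was NTEV, ATEV, DNase-treated ATEV and PBS for Itgax, Ly75 and Adgre1, with the highest mean 2.5, 6.67 and 1.64 times the lowest. For Lyz2 the order was ATEV, NTEV, PBS and DNase-treated ATEV, with a ratio of 2.85. Csf1r differed the least among the 9, with a ratio of 1.2, followed by Cd68 with 1.26.

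Csf1r shares 873 exon bases with Hmgxb3, a gene on the opposite strand, which averaged 60.7 CPM with ATEV, 61.3 with NTEV, 58.6 with DNase-treated ATEV and 64.3 with PBS and was called in none of the 5 comparisons. The other 8 markers share 0 exon bases with an annotated gene.

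Partners and relatives of the markers were read from a list of 33 genes, of which 22 were tested. With ATEV, 6 rose and 1 fell against PBS (median log2 fold change 0.52, against 0.03 for all genes, of which 3.32% rose and 1.42% fell). With NTEV, 3 rose and 1 fell (median 0.14, all genes 1.7% higher and 0.611% lower). For DNase-treated ATEV edgeR called 0 of them against PBS (median 0.19, all genes 0%). Against ATEV 0 rose and 3 fell (median -0.21, all genes 0.143% higher and 1.32% lower). ATEV exceeded NTEV for 1 of them, Axl (median 0.21, all genes 0.875% higher). Of the 7 calls for ATEV against PBS, 2 were kept in all 12 fits that left out 1 library, and only those 2 without ATEV replicate 2 or any 1 of the PBS libraries. Of the 4 for NTEV against PBS, 0 were kept without NTEV replicate 2, NTEV replicate 3 or any 1 of the PBS libraries, and of the 3 for DNase-treated ATEV against ATEV 0 without DNase-treated ATEV replicate 1 or 2.

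Itgb2, the beta chain with which CD11c pairs, averaged 284.5 ± 43.0 CPM with ATEV and 185.9 ± 4.6 CPM with PBS, a log2 fold change of 0.61 ± 0.14 (adjusted p = 0.0267). That call was lost without ATEV replicate 2 (adjusted p = 0.125) and without PBS replicate 1 (0.0805), replicate 2 (0.116) or replicate 3 (0.0648). Itgb2 also rose with NTEV against PBS (0.59 ± 0.14, adjusted p = 0.0435). It was lower with DNase-treated ATEV than with ATEV (-0.66 ± 0.14, adjusted p = 0.0315). Of the 12 fits that left out 1 library, 8 kept the Itgb2 call for ATEV against PBS. The call for NTEV against PBS and the call for DNase-treated ATEV against ATEV were each kept in 5. Itgal, the alpha chain of the integrin LFA-1, averaged 71.1 ± 1.19 CPM with ATEV and 29.4 ± 2.3 CPM with PBS (1.27 ± 0.17, adjusted p = 0.00103), and its call was kept in all 12 fits that left out 1 library. With DNase-treated ATEV it averaged 65.2 ± 17.5 CPM (1.15 ± 0.17 against PBS, adjusted p = 0.0612).

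Axl and Tyro3 are the receptor kinases related to Mertk. Axl averaged 2.15 ± 0.717 CPM with ATEV and 0.332 ± 0.0542 CPM with PBS, a log2 fold change of 2.68 ± 0.43 (adjusted p = 0.00333). It averaged 0.414 ± 0.226 CPM with DNase-treated ATEV, which was lower than ATEV by a log2 fold change of -2.34 ± 0.42 (adjusted p = 0.0101), which no longer passed without ATEV replicate 2 (adjusted p = 0.0611), DNase-treated ATEV replicate 1 (0.0527) or DNase-treated ATEV replicate 2 (0.0731). ATEV also exceeded NTEV, at 0.266 ± 0.115 CPM (3.03 ± 0.44, adjusted p = 0.00329). The first and the last of these Axl calls were kept in all 12 fits that left out 1 library. Tyro3 averaged 0.857 ± 0.268 CPM with ATEV and 0.583 ± 0.126 CPM with PBS (adjusted p = 0.297).

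The ligands of the growth factor receptors did not pass. Csf1 averaged 319.4 ± 124.5 CPM with ATEV and 195.9 ± 43.8 CPM with PBS (adjusted p = 0.115). Il34 averaged 1.59 ± 0.324 CPM with ATEV and 0.578 ± 0.397 CPM with PBS (adjusted p = 0.0874). Flt3l averaged 6.15 ± 0.322 CPM with ATEV and 3.13 ± 0.907 CPM with PBS (adjusted p = 0.113).

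Among the transcription factors that work with Batf3, Irf8, a factor of dendritic cell and monocyte development, averaged 164.2 ± 19.0 CPM with ATEV and 112.3 ± 12.6 CPM with PBS (0.55 ± 0.13, adjusted p = 0.0322). That call was kept in 6 of the 12 fits that left out 1 library. It was lost without ATEV replicate 2 (adjusted p = 0.0775), ATEV replicate 3 (0.0924), NTEV replicate 3 (0.0524), PBS replicate 1 (0.0516), PBS replicate 2 (0.153) or PBS replicate 3 (0.0687). Irf8 was lower with DNase-treated ATEV than with ATEV (-0.7 ± 0.13, adjusted p = 0.0136), a call kept in 9 of the 12 fits. Batf averaged 9.98 ± 2.77 CPM with ATEV and 8.87 ± 0.755 CPM with PBS (adjusted p = 0.618), and Jun 168.8 ± 64.3 CPM with ATEV and 193.7 ± 25.0 CPM with PBS (adjusted p = 0.696). Batf2 was below the limit for testing, with 27 counts over the ATEV libraries, 6 with NTEV, 8 with DNase-treated ATEV and 2 with PBS. Cd302, a relative of Ly75, averaged 42.2 ± 18.3 CPM with ATEV and 24.2 ± 2.86 CPM with PBS (adjusted p = 0.0732).

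The wider lineage lists moved in both directions. Of 33 tested macrophage and monocyte markers, 8 rose and 3 fell with ATEV against PBS (median log2 fold change 0.44), beside 3.32% and 1.42% of all genes. With NTEV against PBS 1 rose and 3 fell (median -0.12, all genes 1.7% higher and 0.611% lower). With DNase-treated ATEV edgeR called 0 against PBS (median -0.01, all genes 0%). Against ATEV 0 rose and 4 fell (median -0.5, all genes 0.143% higher and 1.32% lower). ATEV exceeded NTEV for 5 of them and were below NTEV for 0 (median 0.55, all genes 0.875% higher and 0.0603% lower). Of the 11 calls for ATEV against PBS, 4 were left without ATEV replicate 2, ATEV replicate 3 or PBS replicate 2. Of the 4 for NTEV against PBS, 2 were left without NTEV replicate 2 or 3 or PBS replicate 2 or 3. Without DNase-treated ATEV replicate 2, 1 of the 4 calls against ATEV was left, and without NTEV replicate 3, 2 of the 5 calls for ATEV against NTEV.

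Fcgr4, an activating receptor for the Fc part of IgG, averaged 16.0 ± 4.18 CPM with ATEV and 4.27 ± 1.14 CPM with PBS (1.9 ± 0.25, adjusted p = 0.000921). It averaged 5.47 ± 0.618 CPM with DNase-treated ATEV, below ATEV by a log2 fold change of -1.55 ± 0.25 (adjusted p = 0.00599). Siglec1, a sialic acid receptor of macrophages, averaged 116.2 ± 28.9 CPM with ATEV and 44.3 ± 7.2 CPM with PBS (1.39 ± 0.23, adjusted p = 0.00459). These 3 calls were kept in all 12 fits that left out 1 library. Siglec1 also rose with NTEV against PBS (1.24 ± 0.23, adjusted p = 0.0169), a call kept in 7 of those 12 fits.

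Maf and F13a1 went the other way. Maf, a transcription factor of macrophages, averaged 3.46 ± 0.675 CPM with NTEV and 37.4 ± 23.2 CPM with PBS (-3.43 ± 0.44, adjusted p = 0.00296). F13a1, a coagulation factor chain made by monocytes, averaged 4.74 ± 2.16 CPM with NTEV and 115.0 ± 50.6 CPM with PBS (-4.59 ± 0.54, adjusted p = 0.00296). Both NTEV calls were kept in all 12 such fits. Maf and F13a1 were also called lower with ATEV against PBS (-2.11, adjusted p = 0.0131, and -2.33, adjusted p = 0.016). For ATEV, 11 of the 12 fits kept the Maf call and 9 kept the F13a1 call. C1qc, a chain of complement C1q, averaged 141.7 ± 87.2 CPM with ATEV and 10.4 ± 4.66 CPM with NTEV (3.76 ± 0.64, adjusted p = 0.00931), which did not pass without NTEV replicate 3 (adjusted p = 0.0775).

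Of 19 tested markers of conventional dendritic cells, 1 rose and 2 fell with ATEV against PBS (median log2 fold change -0.21). With NTEV against PBS 1 rose and 3 fell (median -0.11). Over all genes, 3.32% rose and 1.42% fell with ATEV, and 1.7% rose and 0.611% fell with NTEV. Cd24a, a glycosylated surface protein found on a subset of dendritic cells, averaged 9.72 ± 1.61 CPM with ATEV and 65.4 ± 16.8 CPM with PBS (-2.75 ± 0.28, adjusted p = 0.000121). With NTEV it averaged 12.2 ± 4.31 CPM (-2.42 ± 0.27 against PBS, adjusted p = 0.00242). Both Cd24a calls were kept in all 12 fits that left out 1 library. Cd24a was the only call of this list left for ATEV against PBS without ATEV replicate 2 or PBS replicate 2, and for NTEV against PBS without NTEV replicate 3 or PBS replicate 3.

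Tlr3, a sensor of double-stranded RNA, averaged 4.66 ± 1.06 CPM with ATEV and 1.49 ± 0.384 CPM with PBS (1.63 ± 0.31, adjusted p = 0.0116), which no longer passed without ATEV replicate 2 (adjusted p = 0.062) or PBS replicate 2 (0.075). For DNase-treated ATEV edgeR called 0 of the 19 against PBS (median -0.08) and 0 against ATEV (median -0.08), beside 0% and 1.46% of all genes. Of the 4 tested plasmacytoid markers, 0 rose and 1, Pacsin1, fell with ATEV against PBS (all genes 3.32% higher and 1.42% lower). The Pacsin1 call was kept in 4 of the 12 fits that left out 1 library (highest adjusted p = 0.151). ATEV exceeded NTEV for 1 of the 19, Jaml, beside 0.875% of all genes. Jaml, an adhesion molecule of leukocytes, averaged 3.0 ± 0.525 CPM with ATEV and 0.962 ± 0.107 CPM with NTEV (1.63 ± 0.25, adjusted p = 0.00464).

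**Figure D5:**
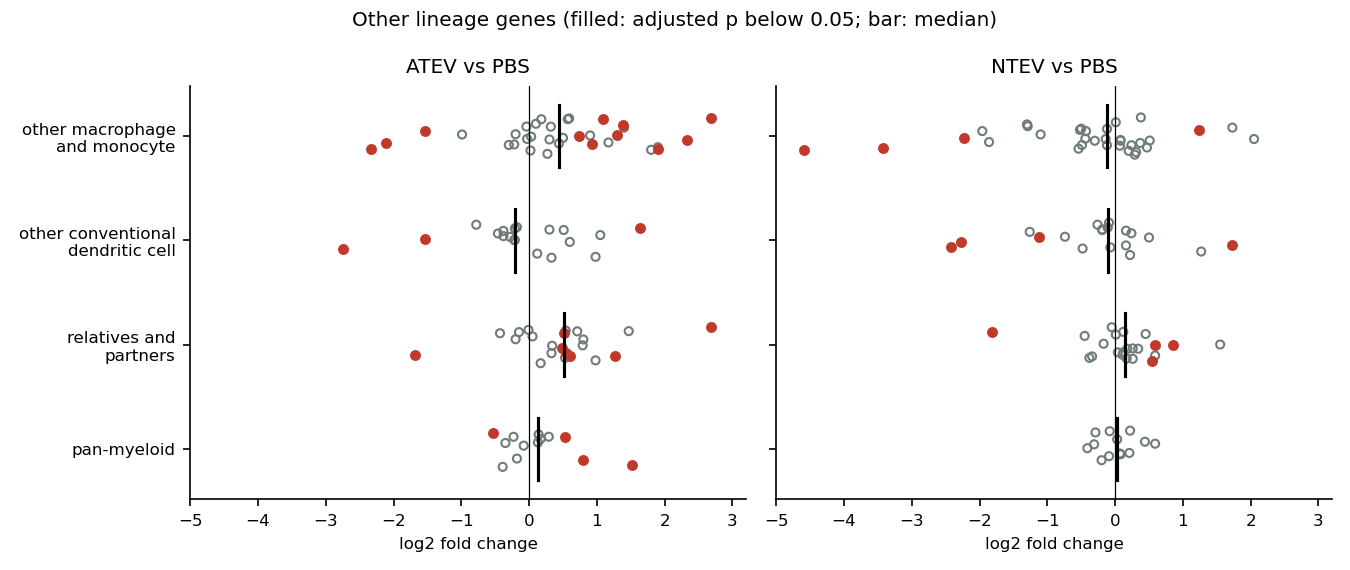
Log2 fold change of every tested gene of 4 gene lists for ATEV against PBS (left) and NTEV against PBS (right), with 1 point per gene, called genes filled and the list median as a bar. With ATEV against PBS the macrophage and monocyte list has 8 called genes above 0 and 3 below, and the conventional dendritic cell list 1 above and 2 below. Over all genes tested, 3.32% were called above 0 and 1.42% below.

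Of 13 tested pan-myeloid and leukocyte genes, 3 rose and 1 fell with ATEV against PBS (median 0.13, all genes 3.32% higher and 1.42% lower). With NTEV against PBS edgeR called 0 (median 0.03), beside 2.31% of all genes. Ctss, a lysosomal protease of antigen-presenting cells, averaged 1013.8 ± 126.1 CPM with ATEV and 581.0 ± 68.1 CPM with PBS (0.8 ± 0.13, adjusted p = 0.00437), kept in all 12 fits that left out 1 library and the only one of these 4 calls left without PBS replicate 2.

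The genes whose profile was most like each marker were found over the 12 libraries as the smallest root mean square difference of log2 CPM scaled to mean 0 and SD 1, where the median over all genes was 1.37 to 1.45. The closest gene to Lyz2 was Wfdc17, at 0.245, with 10.8 CPM with ATEV, 7.42 with NTEV, 2.46 with DNase-treated ATEV and 3.01 with PBS. For Itgax the nearest were Serpinb1b (0.305) and Arhgef3 (0.307). For Ly75 they were Mfap3l (0.355) and Slc31a1 (0.389), and for Adgre1 Nyap1 (0.274) and Polm (0.303).

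The nearest to Batf3 were Erg28 (0.25) and Mrps21 (0.253), and the nearest to Zbtb46 were Ip6k1 (0.27) and Fam120b (0.348). Cd68 was closest to Ercc6 (0.388) and Tln1 (0.449), and Mertk to Rnase4 (0.459) and Rnaset2b (0.459). Csf1r had the least similar neighbours, Galnt10 (0.511) and Zfp385a (0.613). The second nearest to Lyz2 was Psmd8 (0.311).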

How the data were processed

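The authors deposited whole-number read counts per gene, 1 column per library, with no normalisation visible in the values. Build mm9 and the tools TopHat, TopHat2 2.0.11, Cufflinks 2.1.1 and bcl2fastq 2.19 appear in the submitters' processing notes. How reads were counted, with which annotation and with which strand setting, is not given in the sources used here. Counts of overlapping or antisense genes, and of close copies such as Lyz1 and Lyz2, may therefore share reads. Symbols and exon lengths came from GENCODE M21, which matched 42250 of the 42687 identifiers and left 437 without a symbol. Promoter sequences are RefSeq's on GRCm38.p6, a later build than mm9, and no coordinates were converted.

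Groups and replicate numbers were read from the sample titles, and every column was assigned. The tests used edgeR 4.0.16 under R 4.3.3 (quasi-likelihood F test, two-sided, TMM scaling, 1 mean per group over all 12 libraries). The filter, filterByExpr with a minimum count of 10 and a minimum total of 15, kept 13261 genes, and p-values were adjusted by Benjamini-Hochberg within each of 5 contrasts. CPM are TMM-scaled, errors beside means are SD over 3 libraries, and errors beside log2 fold changes are SE. Nearest profiles used a pseudocount of 0.5 CPM. Floors are 3 counts over a group, and counting intervals cover counting error only. The test was also tried on simulated counts with known changes in ATEV. For ATEV against PBS it recovered 62% of 100 genes changed 2-fold and 94% of 100 genes changed 4-fold.

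Genes named are the 10 markers, 12 paralogs and partners, up to 4 called genes per list and contrast with the smallest adjusted p, and the 2 nearest profiles of each marker; cell type markers are named from fixed lists, and further genes as overlaps. Not every gene that meets the rule is printed. The markers and lists were chosen with earlier results of these data known, and the lists share some biology with the markers. Alternatives were DESeq2 1.42.0, limma-voom (limma 3.58.1), RLE factors, no filter, a fit of the 2 groups compared, a replicate block and leaving out each library.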

Additional observations from a re-analysis of the deposited data

How the results depend on the processing

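Calls of the markers rested on few libraries. Leaving out each library in turn gave 1 to 2 markers called for ATEV against PBS, 0 to 4 for NTEV against PBS, 0 for DNase-treated ATEV against PBS, 1 for DNase-treated ATEV against ATEV and 0 for ATEV against NTEV. Over all genes those fits called 169 to 1287, 31 to 1687, 0 to 7, 76 to 521 and 70 to 287, in the same order of comparisons. The counts of genes called, in that order, were 628, 306, 0, 194 and 124. DESeq2 called 1518, 839, 35, 495 and 370, and no low-count filter gave 1317, 876, 47, 394 and 242. The fit of the 2 groups alone called 1237 for ATEV against PBS and 26 for NTEV against PBS. For NTEV against PBS, where 2 markers were called, DESeq2 and no filter each called 4 (Itgax, Ly75, Adgre1 and Lyz2) and the fit of the 2 groups 0. For DNase-treated ATEV against PBS, where 0 were called, DESeq2 and no filter each called 1, Itgax. The cause of these shifts was not tested.

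Of 18 same-numbered pairs of libraries from different groups, 8 had a correlation of deviations over 0.1 (r from -0.448 to 0.702, median 0.048), and 4 of 12 libraries were closest to one of their own number, so the numbers were not taken to pair samples throughout. The 3 highest values were among the replicate 1 libraries of NTEV and DNase-treated ATEV (0.702), NTEV and PBS (0.605) and DNase-treated ATEV and PBS (0.527), whereas ATEV replicate 1 had -0.368, -0.448 and -0.189 with them. The replicate block gave 1440, 343, 1, 261 and 135 genes called and left the markers called at 2, 2, 0, 1 and 0.

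Directions turned for fold changes near 0 that passed no test. For ATEV against PBS, Csf1r was 0.0 under DESeq2 and RLE factors and -0.06 to 0.11 without 1 library, and Cd68 -0.06 to 0.12. For NTEV against PBS, Mertk was 0.03 under limma-voom and -0.31 to 0.4 without 1 library, and Zbtb46 -0.19 to 0.42. For DNase-treated ATEV against PBS, Zbtb46 ran from -0.32 to 0.18, Mertk from -0.1 to 0.75 and Cd68 from -0.17 to 0.01, and against ATEV Batf3 from -0.17 to 0.36, Adgre1 from -0.24 to 0.03 and Mertk from -0.56 to 0.08. For ATEV against NTEV, Itgax was 0.02 under limma-voom, 0.01 with the block and -0.27 to 0.12 without 1 library, Zbtb46 -0.02 to 0.58 and Batf3 -0.03 to 0.51. Of the other values of single markers, 757 kept direction and side of the threshold, 12 newly passed it and 12 no longer did. Depth limited Flt3, and Ly75 with PBS rested on 27 counts.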
